A study of Mus musculus with 4 samples.

Results

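Vein-like cells of the mouse ear dermis are described here. They are 136 of the 631 wells that were kept as blood vascular endothelial cells (BECs), out of 1536 wells sequenced. The wells were chosen by the read counts of 32 genes. A well was kept when it held at least 20000 gene reads, no more than 8000 detected genes, a read of at least 2 of the 3 endothelial genes *Kdr*, *Pecam1* and *Cdh5*, and under 100 CPM (gene reads scaled to the same total in each well) of each of the lymphatic, immune and mural cell genes *Lyve1*, *Prox1*, *Ptprc*, *Pdgfrb* and *Kcnj8*. Each kept well then received 3 scores, for vein, artery and capillary, each the mean of 8 genes after log2(CPM + 1) had been centred and scaled within its replicate. Wells were selected on the vein score being the highest by at least 0.25. By the same rule 122 wells were artery-like, 169 were capillary-like and 204 had no class.

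The cells came from the ear dermis of untreated wild-type C57Bl/6 female mice (C57BL/6 J in the study's methods). The labels give adults of 12 to 26 weeks, while the methods name a younger range that overlaps in part. Tissue was dissociated with collagenase, and CD31+/CD45-/Lyve1- cells were sorted singly into plates of 384 wells for Smart-seq2, a full-length RNA method without molecular identifiers. There were 2 replicates of 2 plates each (A and B), and the design text describes a replicate as a pool from 6 mice. Whether each replicate is its own pool or both were drawn from 1 pool is not settled by the labels. Cells of 1 pool are not independent animals, so n is 2 replicates throughout, and the SEs and p-values measure only the spread between these samples, which may be technical. All groups compared share the strain, the sex, the sort and the pools. Replicate 1 gave 69 vein-like wells (27 on plate A and 42 on plate B), or 20.5% of its 337 kept wells (95% exact binomial interval 16.3 to 25.2%). Replicate 2 gave 67 (45 and 22), or 22.8% of 294 (18.1 to 28.0%). By plate the share was 17.3 and 23.2% in replicate 1 and 31.3 and 14.7% in replicate 2, so the plates of replicate 2 lay further apart than the replicates did. These intervals cover counting error only.

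Depth differed between the classes. The vein-like median was 186860 gene reads in replicate 1 and 130425 in replicate 2, against 134152 and 114322 in artery-like and 136182.5 and 148221 in capillary-like wells. The vein-like wells held the most genes at equal depth in both replicates. With every well reduced to 20000 reads, the median was 2958 and 1855 genes in vein-like, 2437 and 1708.5 in artery-like and 2341.5 and 1764 in capillary-like wells of replicates 1 and 2. Doublets were not called beyond the limit of 8000 genes.

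Veins and postcapillary venules collect blood from the capillaries. In skin the venules are the main place where leukocytes leave the blood and where plasma leaks in inflammation. Their endothelium stores P-selectin and von Willebrand factor in Weibel-Palade bodies, displays E-selectin and ICAM-1, and carries the atypical chemokine receptor ACKR1. E-selectin and ICAM-1 are classically induced by inflammatory cytokines. The tight junction protein Claudin5 is a gatekeeper of endothelial permeability.

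The genes of P-selectin (*Selp*) and E-selectin (*Sele*), which capture rolling leukocytes, are neighbours on chromosome 1 of mm10. *Selp* lies at chr1:164115264-164150026 and *Sele* at chr1:164048234-164057677, both on the plus strand. The gene of ICAM-1 (*Icam1*), which holds leukocytes firmly, lies at chr9:21015985-21028817 on the plus strand. The 250 bases before the RefSeq start of each (GRCm38.p6, plus strand) are shown because the first pair are genes of the vein score and *Icam1* is a leukocyte adhesion gene outside it that differed between the classes. Capitals mark TGANTCA, the AP-1 type of letters, and TTCCNGGAA, the STAT type. Both were searched on both strands and read the same on each.

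Selp, chr1:164115014-164115263: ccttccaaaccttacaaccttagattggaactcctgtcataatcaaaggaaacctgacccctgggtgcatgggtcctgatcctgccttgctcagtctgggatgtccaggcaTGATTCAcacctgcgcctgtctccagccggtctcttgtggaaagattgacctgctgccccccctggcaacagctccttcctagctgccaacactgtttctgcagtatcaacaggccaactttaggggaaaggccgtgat
Sele, chr1:164047984-164048233: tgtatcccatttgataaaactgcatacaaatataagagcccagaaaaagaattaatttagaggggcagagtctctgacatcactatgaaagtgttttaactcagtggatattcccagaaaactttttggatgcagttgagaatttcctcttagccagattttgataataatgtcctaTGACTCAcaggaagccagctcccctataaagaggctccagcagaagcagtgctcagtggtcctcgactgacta
Icam1, chr9:21015690-21015939: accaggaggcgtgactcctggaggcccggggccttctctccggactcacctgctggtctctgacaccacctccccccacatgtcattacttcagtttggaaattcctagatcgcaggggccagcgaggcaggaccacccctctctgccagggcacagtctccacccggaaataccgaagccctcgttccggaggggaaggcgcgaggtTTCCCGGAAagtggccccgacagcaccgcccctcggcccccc

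The windows of *Selp* and *Sele* each held TGANTCA once, starting 139 and 73 bases before the start. That of *Icam1* held TTCCNGGAA once, 42 bases before it. In windows of the same length, 6.75% of 32851 RefSeq promoters held the first motif and 0.913% the second. The NF-kB consensus, present in 7.25%, was not found in these letters, but a site that departs from the consensus would be missed by this search. The window of *Ackr1*, searched in the same way, held none of the 3 motifs. These are matches of letters only.

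The 8 vein genes of the score set the choice of wells, so their levels are a description and were not tested. Levels are the mean CPM over wells and are not corrected for gene length, so genes are not compared with each other. *Selp* was at 794 and 1082 CPM in the A and B plates of replicate 1, and at 1653 and 1143 CPM in those of the second. Artery-like and capillary-like plates lay between 2.65 and 20.2 CPM, far from every vein-like plate. *Sele* was at 526, 964, 1501 and 686 CPM in the same order, against 1.80 to 27.8 CPM on the other plates.

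*Ackr1* (chr1:173331886-173333750), whose product binds chemokines on venular endothelium, was at 620, 824, 277 and 778 CPM on the vein-like plates. It was at 11.1 CPM or lower on all plates of the other classes. *Lrg1*, a secreted glycoprotein, was at 1274 to 1536 CPM, against 21.8 to 417 CPM elsewhere. *Il1r1*, the interleukin-1 receptor, and *Bst1*, an ectoenzyme, had low means of 111.6 and 69.8 CPM and did not overlap with the other classes either. *Vwf*, the gene of von Willebrand factor, was at 887 to 2135 CPM, with 155 to 805 CPM elsewhere. *Ephb4*, the classical venous Eph receptor, was the 1 score gene whose plates overlapped with another class, at 201 to 346 CPM in vein-like and 81.1 to 299.9 CPM in capillary-like wells.

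**Figure D1:**
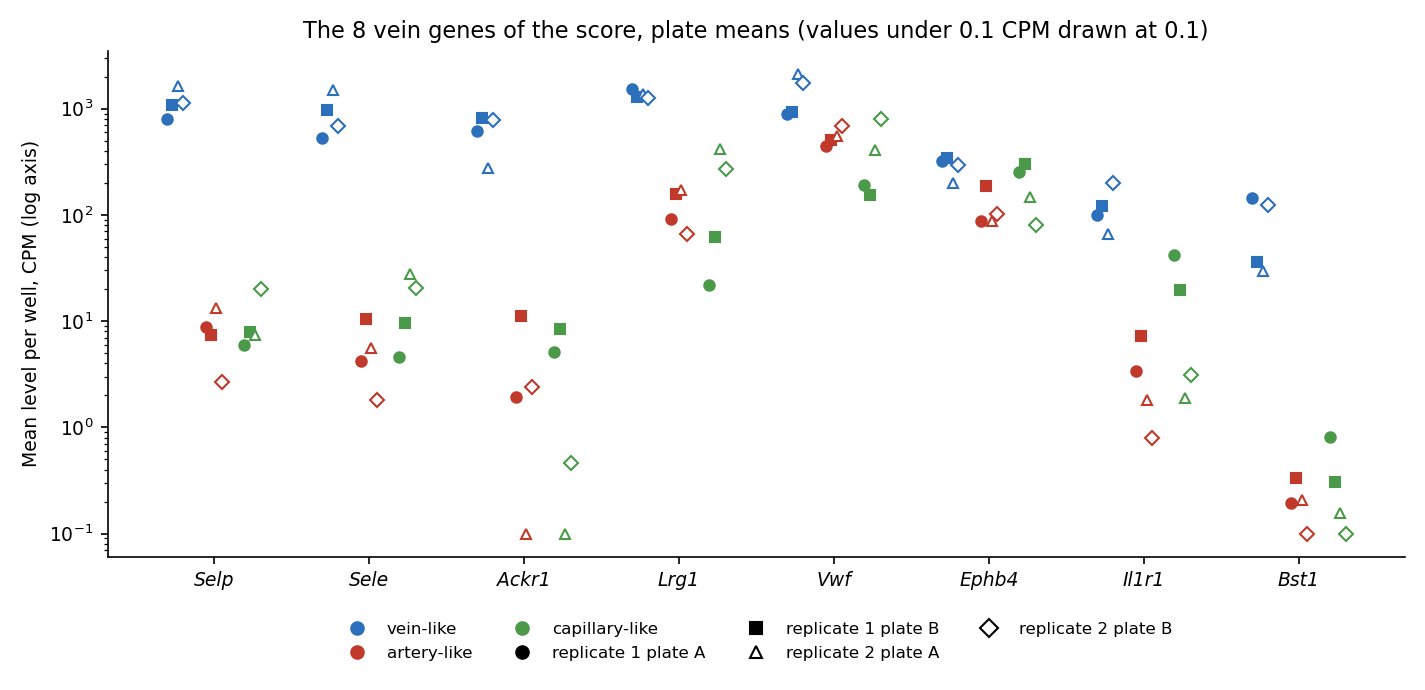
Mean CPM per well (log axis) of the 8 score genes on each of the 4 plates, for vein-like (blue), artery-like (red) and capillary-like (green) wells; filled symbols are replicate 1 and open symbols replicate 2. Blue points of *Selp*, *Sele*, *Ackr1*, *Lrg1*, *Il1r1*, *Vwf* and *Bst1* lie above all others, and those of *Ephb4* overlap with green points.

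These levels follow from the choice and are no check of the label. Venule and venous genes outside the score are given further on. Their lists were chosen with earlier results of these data known, so they are no independent check either. Single wells carried the 8 genes to different extents. Counting a gene as high at 100 CPM, vein-like wells had a median of 4 of the 8 genes in replicate 1 and 3 in replicate 2, and both other classes had a median of 1 in each replicate. All 8 genes were high in 2 wells of replicate 1 and in none of replicate 2. At the other end, 1 and 2 vein-like wells had none of the 8 high, and 6 and 9 had only 1. *Selp* or *Sele* was high in 42 of 69 and 41 of 67 vein-like wells, and both were high in 31 and 23. In the other classes 0 to 2 wells per replicate had either one high.

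**Figure D2:**
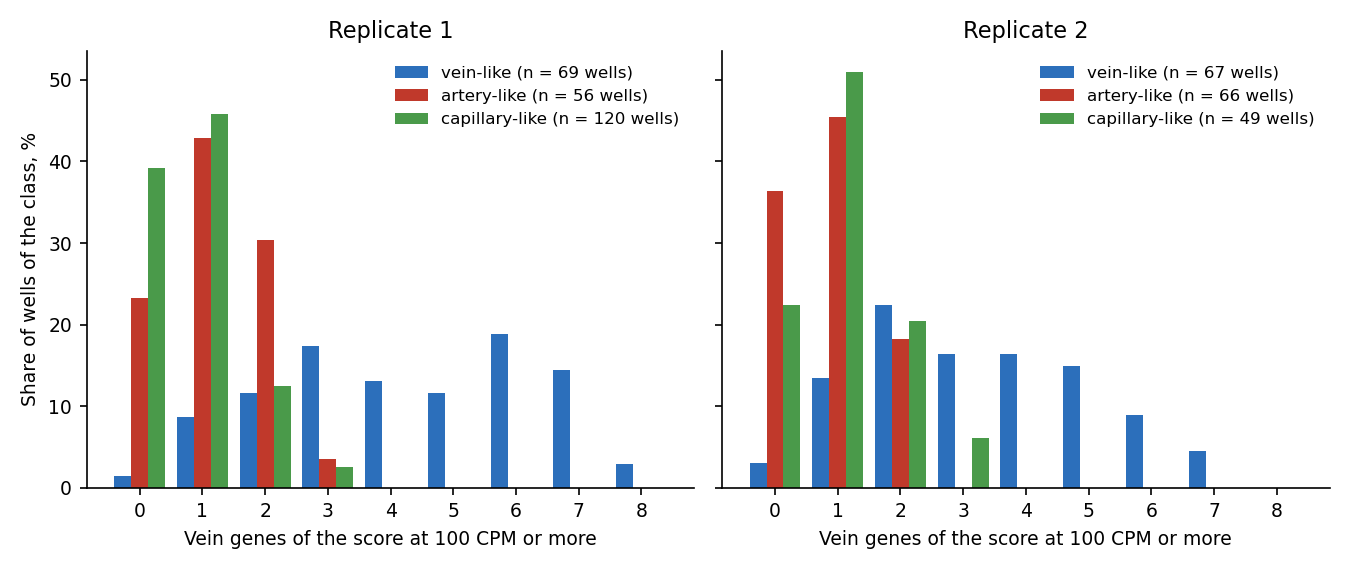
Share of wells (%) of each class by the number of score vein genes at 100 CPM or more, in replicate 1 (left) and replicate 2 (right). Vein-like wells spread from 0 to 8 genes in replicate 1 and from 0 to 7 in replicate 2, and the other classes stay at 3 or fewer.

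Correlations from well to well are given as a description, over wells chosen partly on *Selp*, *Sele*, *Ackr1* and *Ephb4*. Over vein-like wells the Spearman correlation of *Selp* with *Sele* was 0.76 in replicate 1 (69 wells) and 0.57 in replicate 2 (67 wells). *Selp* with *Ackr1* gave 0.51 and 0.41, and *Selp* with *Ephb4* gave 0.063 and -0.055. *Icam1*, which had no part in the choice, correlated with *Sele* at 0.55 and 0.46 and with *Selp* at 0.58 and 0.43. The points share library and depth. *Sele* itself correlated with the reads of the well at 0.11 and 0.67, and *Icam1* at 0.22 and 0.47, so in replicate 2 depth moved with both, and its part was not tested.

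Near the limit of the rule the wells were few. Those with a lead of 0.25 to 0.3 (6 per replicate) held 1869 and 3039 CPM over the 8 vein genes, and wells just outside it at 0.2 to 0.25 (5 and 4 wells) held 538 and 2037 CPM. The 30 and 22 wells with a lead of 1 or more held 8983 and 10136 CPM. In replicate 1 the artery score came second in 55 of 69 vein-like wells, and in replicate 2 the capillary score came second in 38 of 67.

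The vein-like wells were then compared with the mean of the artery-like and capillary-like wells, and with each of these alone, over 15128 genes that the choice of wells had not used. The question is which other genes go with the vein program. Counts were summed per replicate and class, and the quasi-likelihood test of edgeR (block on replicate, Benjamini-Hochberg adjustment) called 0 genes (0% of the genes tested) in all 3 comparisons. The lowest adjusted p was 0.101 against the mean of the others. At an unadjusted p under 0.05, edgeR had 783 genes (5.18%) against that mean, 826 against artery-like and 672 against capillary-like wells, while DESeq2 called 304 (178 higher and 126 lower), 365 (200 and 165) and 277 (148 and 129), a more even split than that of the next test.

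A second test, limma on the mean log2(CPM + 1) per well in each replicate and class, gives every well equal weight. It called 203 genes higher (1.34% of those tested) and 7 lower (0.0463%) in vein-like wells than in the mean of the others, and 126 in all without plate A of replicate 2. Against artery-like wells alone 127 were higher (0.84%) and 15 lower (0.0992%), and against capillary-like wells 115 were higher (0.76%) and 12 lower (0.0793%). With plate B of replicate 1 left out these 2 counts of calls, 142 and 127, became 81 and 56. Without plate A of replicate 2 they became 62 and 62, and without plate B of replicate 2 they became 61 and 69. All 210 genes called against the mean had the same sign in edgeR, 139 of them with an unadjusted p under 0.05. Over all genes the median difference in limma was 0.12, and values are read against that shift.

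With every well, as chosen at full depth, reduced to 20000 reads limma called 219 of 11498 genes, 164 of which were among the 210. Of the wells, 27 and 17 vein-like ones in replicates 1 and 2 held 1000 CPM or more of the marker genes of another cell type (18 and 17 artery-like, 58 and 12 capillary-like wells). Without all such wells 44 genes were called against the mean of the others, 23 against artery-like and 24 against capillary-like wells. Of 48 genes named below with a call, 26 lost it without these wells, all 26 with the same sign and 24 with a difference within 1.5 times of that over all wells. The exceptions were *Hrh1* (0.09) and *Ch25h* (1.06). Differences below are by limma unless stated, on the scale of mean log2(CPM + 1), with the SE from 2 replicates per class. A difference on this scale also depends on how many wells hold a read, so it is not the log2 ratio of mean CPM. Genes without a call are given by level. Of 49 genes named with a difference, 48 were called by limma, and 20 stayed called at 20000 reads, without each plate in turn and without the wells just described. Of these 20, 3 overlap a score gene and so depend on the choice of wells (*Gm16587*, *Gm16548* and *Cadm3*).

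In the list for leukocyte adhesion and transmigration, 19 of 23 measured genes could be tested, 2 were higher and 1 lower. Over all genes tested limma called 1.34% higher and 0.0463% lower, and the counts of this and the later lists stand beside these shares. *Icam1* stood at 1025, 1001, 1342 and 1177 CPM on the vein-like plates (replicate 1 A and B, replicate 2 A and B). On the other plates it was at 42.9 to 343 CPM, so no plate overlapped. The difference was 3.45 ± 0.51 (limma, adjusted p = 3.93e-06), and it was 3.10 ± 0.59 against artery-like and 3.79 ± 0.59 against capillary-like wells. edgeR gave a log2 fold change of 3.29 ± 0.30 with an adjusted p of 0.101. It was high in 66.7 and 40.3% of vein-like wells of replicates 1 and 2, and in 8.16 to 21.4% of the wells of the other classes. The call held under all 6 alternatives of the limma test.

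*St3gal4*, a sialyltransferase that builds selectin ligands, was also higher (1.90 ± 0.48, adjusted p = 0.0185), though its plates overlapped. In edgeR it was at 0.99 ± 0.48 (adjusted p = 0.942), and at -0.0102 ± 1.46 with a limit of 10 CPM for the non-endothelial genes, which left 5 vein-like, 2 artery-like and 5 capillary-like wells in replicate 1. The call was lost without plate B of either replicate (adjusted p up to 0.246, with differences of 1.57 or more) and without the wells holding markers of other cell types (1.65 ± 0.64, adjusted p = 0.385). *Cd200*, an inhibitory ligand for myeloid cells, was lower (fell by 1.78 ± 0.48, adjusted p = 0.0329). Its vein-like plates, at 227 to 416 CPM, lay below all others, which started at 448 CPM. The call was lost without plate B of replicate 1 or either plate of replicate 2 (adjusted p = 0.149 to 0.234), and without the wells of other cell types (0.0654). Its difference stayed at -1.61 or lower without any plate and was -2.11 ± 0.48 without those wells. The genes *Esam*, *Cd34* and *Emcn* had means of 1513, 1474 and 1167 CPM in vein-like wells and no call. Over the 19 genes the median edgeR log2 fold change was -0.13, with 7 above 0 and 12 below, against a median of 0.04 over all genes tested.

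Among 15 tested genes for chemokines and acute-phase proteins, 3 were higher and 1 lower. *Il6*, the cytokine interleukin-6, was at 215, 228, 574 and 239 CPM on the vein-like plates. An artery-like plate reached 260 CPM and overlapped with 3 of them. The difference was 2.09 ± 0.44 (adjusted p = 0.00305), but the call was lost without plate A of replicate 2 or without the wells holding markers of other cell types (adjusted p = 0.12 and 0.281).

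*Lbp*, the lipopolysaccharide-binding protein, was at 431, 411, 190 and 297 CPM, above every other plate (up to 185 CPM). It was higher by 2.23 ± 0.42 (adjusted p = 0.000473) and stayed called under every limma alternative. In edgeR it was at 2.33 ± 1.19 (adjusted p = 0.942), and DESeq2 did not call it (adjusted p = 0.228). *Cfb*, complement factor B, was at 64.0 to 160 CPM against 34.8 CPM or less elsewhere, with a difference of 1.22 ± 0.33 (adjusted p = 0.0366) that was not called when any plate, or the wells with markers of other cell types, were left out, with differences of 1.06 to 1.53 and of 1.35. *Cxcl12*, a chemokine, was lower by limma (fell by 1.45 ± 0.34, adjusted p = 0.00772). Against each class alone it was called against capillary-like wells and not against artery-like wells. Its vein-like plates held 904 to 1592 CPM, below all others at 2052 CPM or more. Without a plate the adjusted p rose to as much as 0.155, with differences of -1.56 to -1.28. Without the wells holding markers of other cell types it was called (-2.11 ± 0.36, adjusted p = 0.00645). *Cxcl1* had a mean of 179 CPM and no call.

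The NF-kB list, whose pathway drives such genes in inflammation, had 2 higher of 19 tested and none lower. *Nfkbiz*, an atypical inhibitor of the pathway, was higher by 2.13 ± 0.52 (adjusted p = 0.0134). *Csf1*, a macrophage growth factor, was higher by 1.08 ± 0.24 (adjusted p = 0.00538), at 12.3 to 79.2 CPM on the vein-like plates with 52.2 CPM at most elsewhere. Both had overlapping plates, and each lost its call without at least 1 plate and without the wells holding markers of other cell types (1.74 and 0.95, adjusted p = 0.25 and 0.215). *Nfkbia*, *Irf1* and *Rela* were at means of 1301, 785 and 224 CPM without a call. Of the 24 genes of the dissociation list, which is triggered when tissue is digested, none was called by limma. *Fos*, *Zfp36*, *Egr1* and *Nr4a1* had means of 4198, 2462, 2220 and 1900 CPM in vein-like wells. At an unadjusted p under 0.05, 8 of these 24 were reached by edgeR, where 5.18% of all genes tested were, and the median log2 fold change of the list was 0.31. Against capillary-like wells alone it was 13 of 24, where 4.44% of all genes were, with a median of 0.63. Against artery-like wells alone it was 4 of 24, where 5.46% were, with a median of 0.04.

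A list of postcapillary venule markers from other tissues had the most calls, 9 higher of 17 tested and none lower. Over all genes tested 1.34% were called higher. Its median edgeR log2 fold change was 1.04. *Slco2a1*, a prostaglandin transporter, held a nearly even level of 365, 416, 414 and 416 CPM on the vein-like plates, against 3.84 to 93.3 CPM elsewhere. The difference was 3.46 ± 0.45 (adjusted p = 1.59e-07). *Tmem252*, a membrane protein, was at 534, 615, 175 and 399 CPM, with 108 CPM at most elsewhere (3.23 ± 0.46, adjusted p = 1.63e-06).

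*Cysltr1*, a receptor for cysteinyl leukotrienes, was at 77.5 to 176 CPM in vein-like wells and at 27.1 CPM or lower elsewhere (2.12 ± 0.28, adjusted p = 2.79e-07). *Ptgs1*, the constitutive cyclooxygenase, was at 199, 308, 65.2 and 151 CPM (2.01 ± 0.35, adjusted p = 0.00011). *Il6st*, the shared signal receptor of the interleukin-6 family, was at 1261 to 1855 CPM, with 1116 CPM at most elsewhere (2.33 ± 0.46, adjusted p = 0.00106). All 5 did not overlap between vein-like and other plates and stayed called under every limma alternative. Of all genes tested, 0.628% had all 4 vein-like plates above those of the other classes.

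*Plvap*, which forms the diaphragms of fenestrae and caveolae, was at 4451, 4549, 3262 and 3439 CPM. It was higher by 2.17 ± 0.37 (adjusted p = 6.9e-05) and not called without the wells holding markers of other cell types (2.00 ± 0.54, adjusted p = 0.15). Capillary-like wells of plate A in replicate 2 reached 3915 CPM, above 2 vein-like plates. *Csrp2*, *Ch25h* and *Apoe* were higher by 1.74, 1.68 and 1.49, and each lost its call without at least 1 plate and without the wells of other cell types (adjusted p = 0.0837, 0.435 and 0.355). *Ctla2a* was at a mean of 481 CPM and had no call.

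Of 13 tested venous identity genes, 3 were higher and none lower than the mean of the others. The median edgeR log2 fold change of the list in that comparison was -0.06, with 6 above 0 and 7 below. Against artery-like wells alone *Bmp4*, *Nrp2* and *Tll1* were called higher. Against capillary-like wells alone *Tll1* was called higher and *Bmp6* lower, so *Nr2f2* was called against neither class alone. *Nr2f2*, the transcription factor COUP-TFII that directs venous fate, was at 76.8, 135, 75.2 and 129 CPM, but capillary-like wells of plate B in replicate 2 reached 140 CPM. The difference was 1.47 ± 0.40 (adjusted p = 0.0366), and with 1 plate left out it stayed called only without plate A of replicate 1 (adjusted p up to 0.418 otherwise). *Bmp4*, a BMP ligand, was at 91.5 to 238 CPM against 90.8 CPM or less (1.65 ± 0.35, adjusted p = 0.00327). *Tll1*, a metalloprotease that releases BMPs, was at 28.7, 49.5, 147 and 170 CPM against 18.3 CPM or less (1.44 ± 0.28, adjusted p = 0.00104). Both stayed called without each plate in turn, and neither was called without the wells holding markers of other cell types (1.35 ± 0.42 and 1.38 ± 0.32, adjusted p = 0.231 and 0.0654). *Tie1*, *Tek*, *Aplnr* and *Id1* were at means of 593, 413, 353 and 290 CPM and had no call.

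The study asked how vessels of the skin differ in leakage, for which the receptors of permeability mediators matter. Of 20 tested, 4 were higher and none lower. *Tacr1*, the substance P receptor, was at 314, 193, 341 and 738 CPM in vein-like wells. It was at 33.7 to 213 CPM in artery-like wells and at 2.56 to 142 CPM in capillary-like wells, so 1 artery-like plate overlapped. The difference was 3.12 ± 0.46 (adjusted p = 3.93e-06) and held under every limma alternative. *Ptafr*, the receptor of platelet-activating factor, was low but higher, at 20.2, 23.1, 29.4 and 89.4 CPM against 7.69 CPM or less (1.16 ± 0.27, adjusted p = 0.0079). Its call was lost without plate B of replicate 1 or plate A of replicate 2 (adjusted p up to 0.177) and without the wells of other cell types (0.214).

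*Hrh1*, the histamine receptor H1, was read in few wells. Its means were 11.3, 29.3, 22.0 and 0 CPM on the vein-like plates, and 3 of 69 and 3 of 67 wells were at 100 CPM or more. Artery-like and capillary-like plates reached 15.9 and 12.1 CPM. limma gave 0.44 ± 0.12 (adjusted p = 0.0352), but the call was lost at 20000 reads (adjusted p = 0.172), without 3 of the 4 plates in turn (up to 0.578) and without the wells of other cell types (0.875). With a plate left out the difference ran from 0.26 to 0.71. *Hrh2* had no read in any well of the 3 classes. *Ramp2*, *S1pr1*, *Flt1* and *Nrp1* had means of 983, 493, 475 and 361 CPM without a call.

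Cytokine and Toll-like receptors had 7 higher of 25 tested, and none lower. Beside *Il6st* these were *Lifr* (2.21), *Csf2rb* (2.20), *Il13ra1* (2.04), *Myd88* (1.53), *Il2rg* (1.37) and *Cd14* (0.42). *Lifr* was at 262 to 398 CPM on the vein-like plates and up to 301 CPM elsewhere. *Csf2rb* was at 372 to 673 CPM, with up to 414 CPM elsewhere, so the plates of both overlapped. *Il13ra1*, a subunit of a shared interleukin receptor, had vein-like plates at 187, 130, 190 and 232 CPM, above all others at 101 CPM or less. It stayed called without each plate in turn, and the other 5 lost their calls without at least 1 plate. Left-out plates took the adjusted p up to 0.0921 for *Lifr*, 0.0848 for *Csf2rb*, 0.471 for *Il2rg*, 0.816 for *Myd88* and 0.329 for *Cd14*. *Il2rg* was highest on a capillary-like plate (205 CPM), and *Cd14* was at 2.46 and 0 CPM on the vein-like plates of replicate 2. Without the wells holding markers of other cell types, only *Il6st* of the 7 was called. *Tnfrsf1a* and *Osmr* were at means of 761 and 481 CPM and had no call.

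Of 19 tested junction genes, *Ctnnal1* was higher and *Cldn5* lower. *Ctnnal1*, a relative of alpha-catenin, was at 327, 336, 255 and 356 CPM against 24.5 to 149 CPM (3.09 ± 0.46, adjusted p = 3.93e-06). *Cldn5* (chr16:18776847-18778262, plus strand) was at 558, 613, 737 and 495 CPM in vein-like wells. It was at 1943 to 2461 CPM in artery-like and 1008 to 1598 CPM in capillary-like wells, so the 3 classes did not overlap. Against artery-like wells it fell by 3.28 ± 0.49 (adjusted p = 7.45e-06), and against capillary-like wells it fell by 1.87 ± 0.49 (adjusted p = 0.0387). In edgeR, against both classes together, it stood at -1.67 ± 0.20 on the log2 scale (adjusted p = 0.277). *Cldn5* was high in 56.5 and 37.3% of vein-like wells, 84.8 to 94.6% of artery-like and 63.3 to 79.2% of capillary-like wells. *Cdh13*, *Ptprb* and *Ctnnb1* had means of 886, 873 and 784 CPM without a call.

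**Figure D3:**
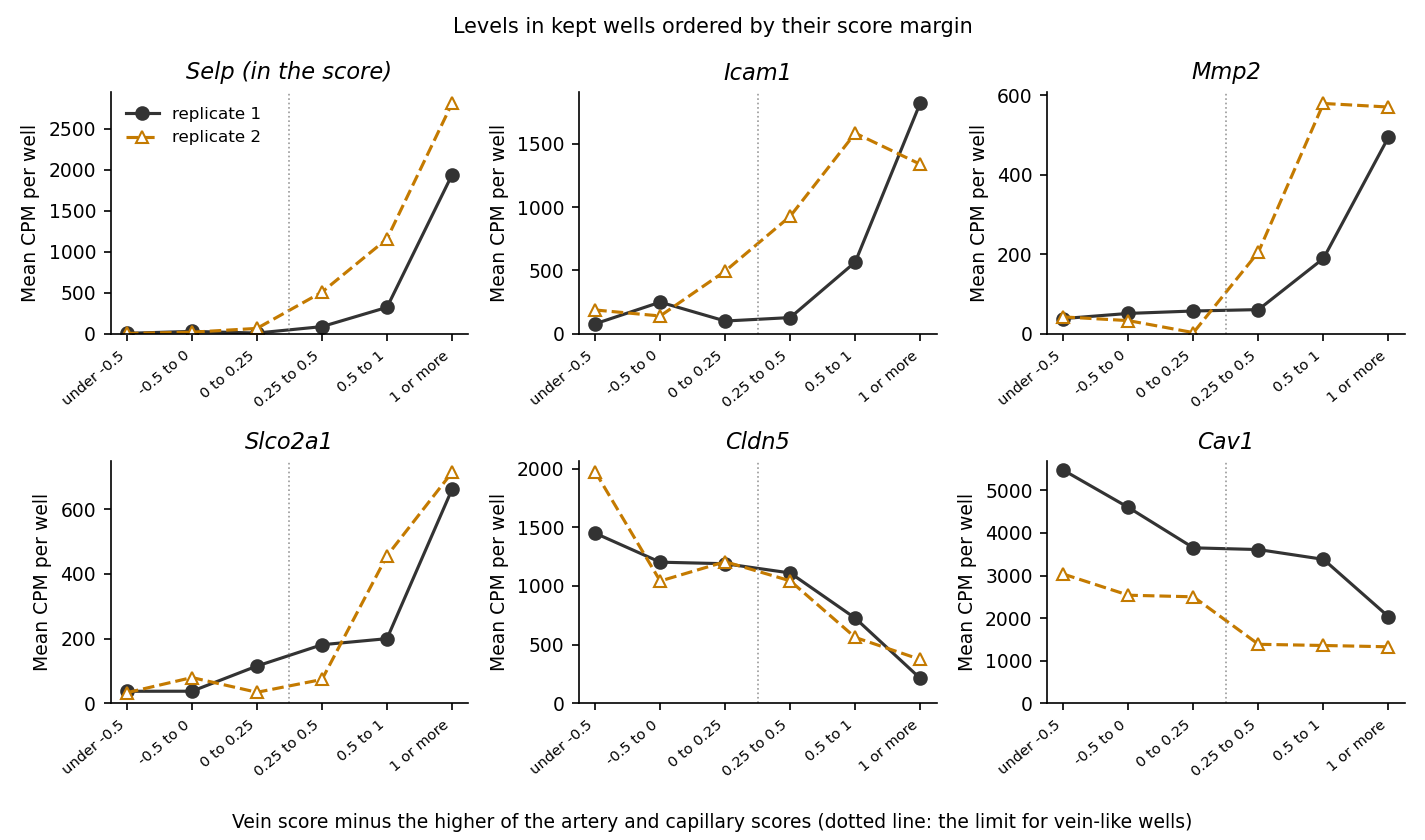
Mean CPM per well of 6 genes in kept wells of any class, by the vein score minus the higher of the other 2 scores, in replicate 1 (solid) and replicate 2 (dashed); *Selp* is part of the score. *Cldn5* goes down from 1450 and 1975 CPM in the lowest bin to 212 and 373 CPM in the highest, and *Slco2a1* goes up from 36.8 and 32.5 CPM to 661 and 714 CPM.

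Within the vein-like wells the same genes varied with the lead of the vein score. From the bin of 0.25 to 0.5 (16 and 22 wells) to that of 1 or more (30 and 22 wells), *Cldn5* went from 1111 to 212 CPM in replicate 1 and from 1044 to 373 CPM in replicate 2. *Icam1* went from 128 to 1821 CPM and from 928 to 1338 CPM, with 1583 CPM between in replicate 2. *Mmp2* went from 60.9 to 495 CPM and from 206 to 570 CPM. Over single wells *Icam1* and *Cldn5* correlated at -0.43 and -0.25 (Spearman). The bins are a description, and wells of a replicate share its pool.

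Of 9 tested genes of caveolae and diaphragms 2 were higher and 1 lower. *Ehd4*, an ATPase of caveolae, and *Plvap*, given above, were higher, and *Cav1*, the main caveolar coat protein, was lower. *Ehd4* was at 769, 802, 482 and 812 CPM against 85.9 to 349 CPM elsewhere (3.05 ± 0.53, adjusted p = 0.000121). *Cav1* was at 3033, 2730, 1266 and 1539 CPM and fell by 1.31 ± 0.27 (adjusted p = 0.00248). Within each replicate its vein-like plates were below those of the other classes, yet those of replicate 1 lay above artery-like plate A of replicate 2 at 1929 CPM. The call was lost without plate B of replicate 2 (adjusted p = 0.144) and without the wells of other cell types (0.0749). *Cav2* was at a mean of 668 CPM and had no call.

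Of 22 tested artery genes outside the score, *Cxcl12* was lower and none higher, and the median edgeR log2 fold change was -0.44. Against artery-like wells alone limma called none of them, and the median was -0.82. *Tm4sf1* was at 847 to 1331 CPM, below all other plates (1475 CPM or more), but limma did not call it (adjusted p = 0.416). *Ltbp4* and *Clu* were at means of 1055 and 812 CPM and had no call. Of 19 tested capillary genes 4 were higher than the mean of the others. *Aqp1*, the water channel aquaporin-1, was at 2411, 2474, 2366 and 2255 CPM, higher than in artery-like wells (3.67 ± 0.47, adjusted p = 1.63e-07) and not called against capillary-like wells (0.33 ± 0.47, adjusted p = 0.92). Capillary-like plates were at 4033 and 4161 CPM in replicate 1, above the vein-like plates, and at 1523 and 1740 CPM in replicate 2, below them. *Meox1*, *Apln* and *Slc27a3* were higher by 2.23, 1.59 and 1.21. None of the 4 was called without the wells holding markers of other cell types (adjusted p = 0.0758 for *Aqp1* and 0.0654, 0.229 and 0.446 for the others). *Aqp1*, *Apln* and *Slc27a3* also lost their calls without at least 1 plate (adjusted p up to 0.0658, 0.403 and 0.469). Without a plate their differences were as low as 1.69, 0.99 and 0.90. *Sparc*, *Fabp4* and *Sgk1*, at means of 2907, 1521 and 801 CPM, had no call. None of the 15 tested antigen presentation genes and none of the 17 coagulation genes was called by limma; at an unadjusted p under 0.05 edgeR had 0 and 1 of them. The antigen presentation genes *H2-D1*, *H2-K1*, *B2m* and *Tapbp* had vein-like means of 1582, 1549.7, 1198 and 451 CPM, in that order. *Thbd*, the thrombin receptor thrombomodulin, was at 551 CPM, *Entpd1*, which breaks down ATP and ADP, at 1084 CPM, *Mmrn2* at 700.2 CPM and *Anxa2* at 669.9 CPM.

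**Figure D4:**
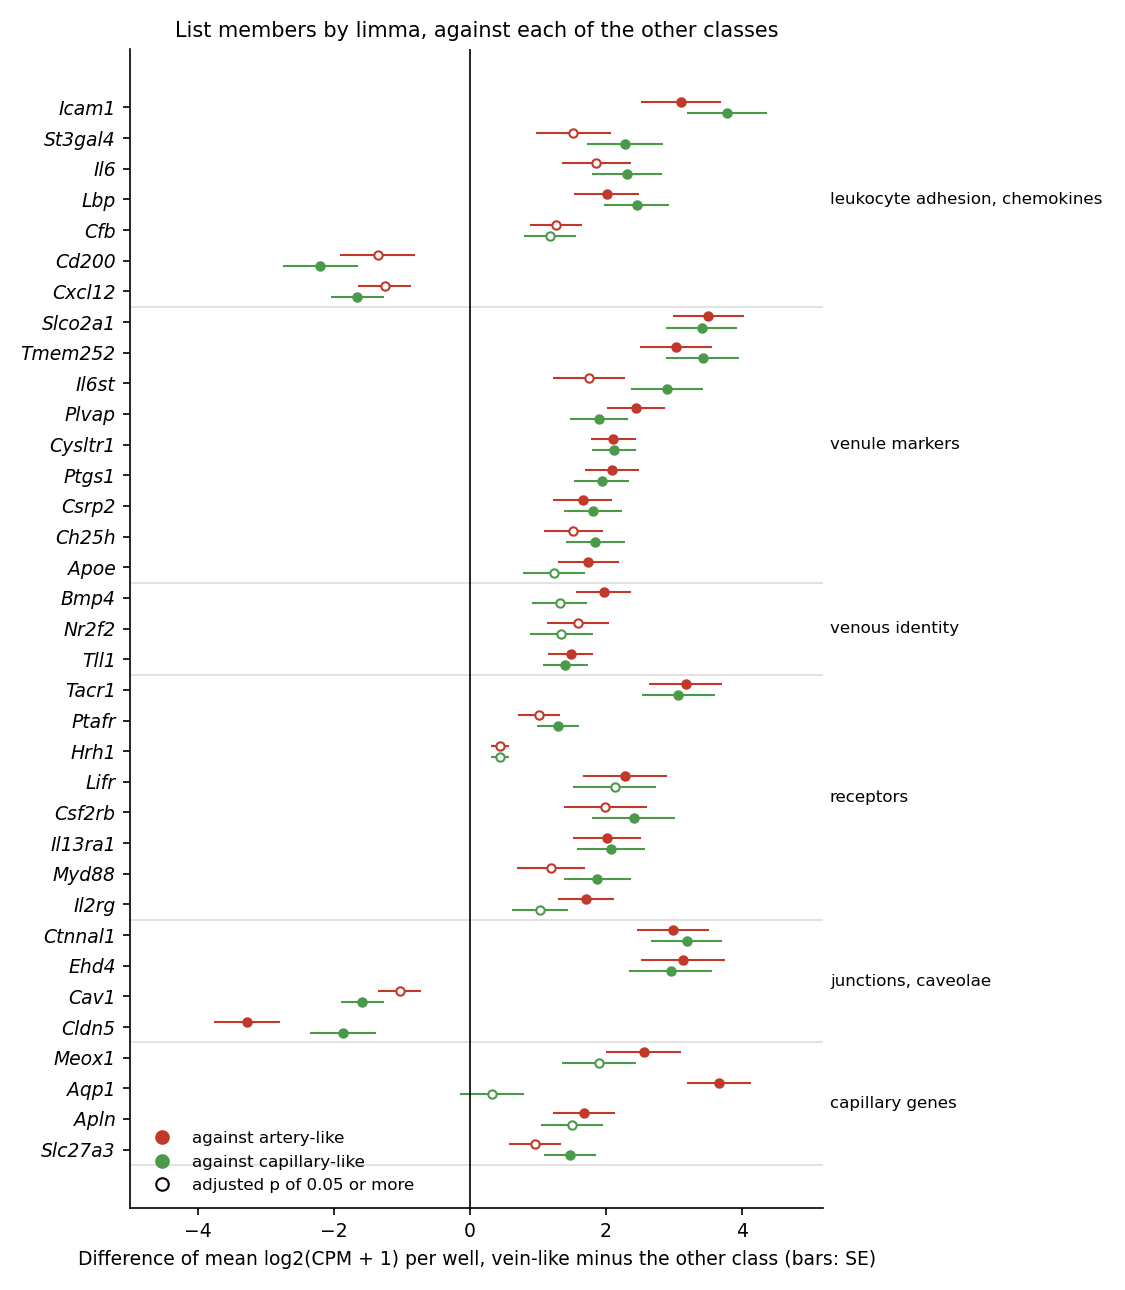
Difference in mean log2(CPM + 1) per well between vein-like and artery-like (red) or capillary-like (green) wells, with SE, for list members called by limma; open circles had an adjusted p of 0.05 or more in that pair. *Icam1*, *Slco2a1* and *Tacr1* lie above 3 against both classes, *Cldn5* lies at -3.28 and -1.87, and *Aqp1* is called against artery-like wells but not against capillary-like wells.

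Among all genes tested, list members included, 95 (0.628%) had all 4 vein-like plates above all 8 plates of the other classes, and 30 (0.198%) had them below. The genes that follow are in no list and were picked after their values had been seen. *Lepr*, the leptin receptor, was at 679, 551, 638 and 676 CPM against 35.7 to 426 CPM (3.52 ± 0.57, adjusted p = 2.69e-05). *Mmp2*, a gelatinase, was at 209, 346, 413 and 537 CPM against 64.7 CPM or less (2.76 ± 0.42, adjusted p = 8.27e-06). *Nt5e*, which makes adenosine from AMP, was at 182, 151, 103 and 155 CPM, and at 5.41 CPM or less elsewhere (2.20 ± 0.29, adjusted p = 1.59e-07).

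*Ret*, a receptor tyrosine kinase of the nervous system and kidney, was at 146 to 205 CPM against 42.5 CPM or less (2.61 ± 0.34, adjusted p = 1.43e-07). *Gem*, a small GTPase, was at 135 to 359 CPM against 15.3 to 105 CPM (2.75 ± 0.43, adjusted p = 1.1e-05). *Pdia5*, a protein disulfide isomerase, was at 246 to 420 CPM against 30.3 to 140 CPM (2.84 ± 0.47, adjusted p = 4.3e-05). *Lepr* was high in 50 of 69 and 42 of 67 vein-like wells, *Pdia5* in 41 and 24, and *Gem* in 33 and 19. *Mmp2* was high in 26 and 21 wells, *Ret* in 24 and 16, and *Nt5e* in 20 and 8.

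**Figure D5:**
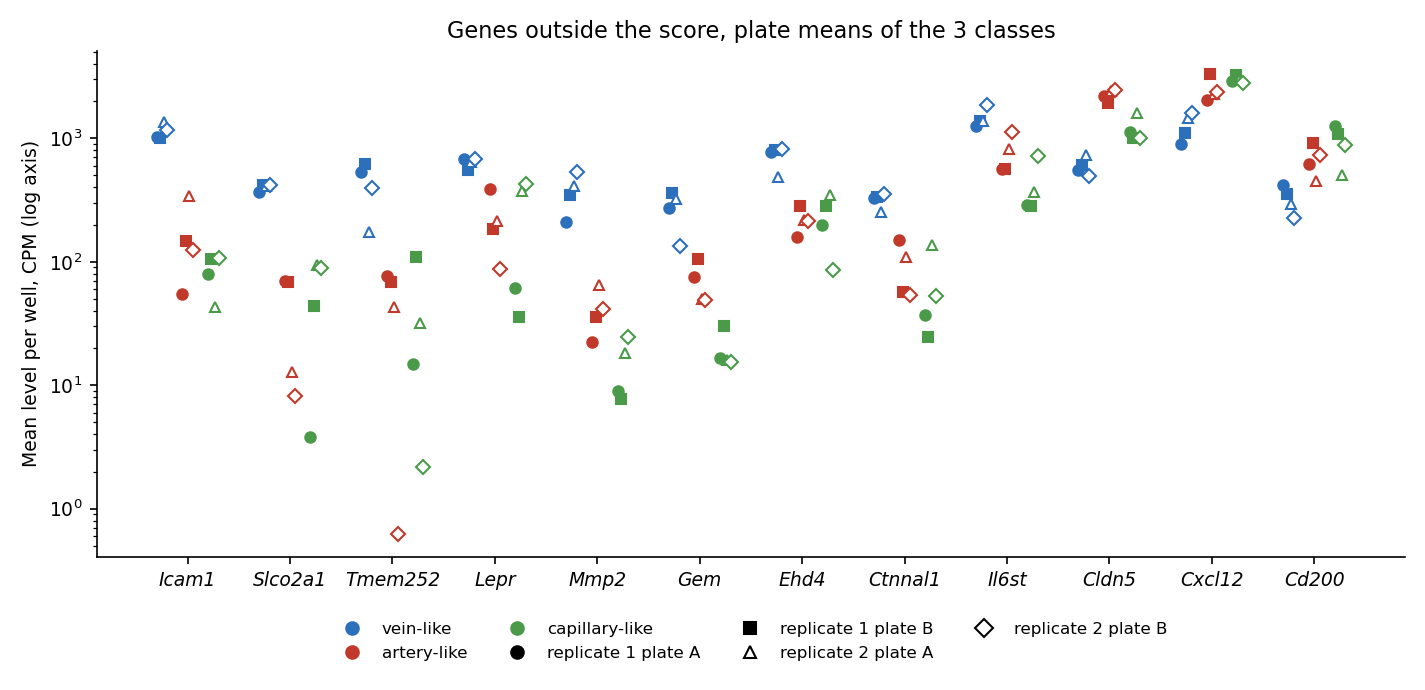
Mean CPM per well (log axis) of 12 genes outside the score on each plate, for vein-like (blue), artery-like (red) and capillary-like (green) wells; filled symbols are replicate 1 and open symbols replicate 2. Blue points lie above all others for the first 9 genes and below all others for *Cldn5*, *Cxcl12* and *Cd200*.

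Of the genes called by limma, 3 are not independent of the choice because they overlap a score gene and the counting is not stated to use strand. *Gm16587* (chr1:164143432-164146366) and *Gm16548* (chr1:164148591-164152217) lie on the minus strand over *Selp*. *Cadm3* (chr1:173333258-173367695) overlaps *Ackr1* on the same strand. Their means in vein-like wells were 119 to 201, 136 to 214 and 136 to 158 CPM over the replicates.

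Markers of other cell types were read in the vein-like wells too. The summed level of 10 mural genes was 1008 and 475 CPM in vein-like, 1160 and 360 CPM in artery-like and 1642 and 370 CPM in capillary-like wells of replicates 1 and 2. Of 9 tested mural genes 1 was called. *Tagln*, a smooth muscle actin-binding protein, was at 422, 539, 417 and 188 CPM in vein-like wells and at 46.2 to 224 CPM elsewhere (2.81 ± 0.53, adjusted p = 0.000498). It was not called without the wells holding markers of other cell types (adjusted p = 0.0654). Immune markers summed to 12.4 and 15.8 CPM, keratinocyte markers to 26.1 and 9.89 CPM, lymphatic markers to 119 and 622 CPM and fibroblast markers to 204 and 512 CPM, and limma called none of them. The lymphatic and fibroblast means of replicate 2 were above the mural mean, with medians over wells of 70.5 and 17.6 CPM. The part of such RNA in the differences above was not tested.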

How the data were processed

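Ear dermal BECs of 4 plates were analysed. The authors aligned single 50-bp Smart-seq2 reads to mm10 (TopHat2 2.1.1), removed duplicates (SAMtools 0.1.18) and deposited raw counts per gene and well (Subread 1.4.6-p5). The annotation release is not given in the sources used here. With duplicates removed, no count exceeded 4654, which limits abundant genes. The 92 spike-in sequences were left out; 46005 of 46517 gene IDs matched a symbol in GENCODE vM21.

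Counts were summed into 6 sums, 2 replicates of 3 classes. The test, edgeR 4.0.16, took genes reaching 10 counts in 2 or more sums (TMM, quasi-likelihood, replicate block, 2 residual degrees of freedom), adjusted by Benjamini-Hochberg at 0.05. DESeq2 1.42.0 and limma 3.58.1 (log2(CPM + 1), trend over mean level) were alternatives. Classes within a replicate share its pool, and deviations of their sums correlated at 0.11 to 0.14. edgeR, DESeq2 and limma were tested on simulated data. At the estimated spread DESeq2 made the most false calls, and edgeR recovered the fewest of the changed genes. R 4.3.3 and Python 3.11.15 were used.

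Members and gene lists were chosen with earlier results of these data known. Genes named were the score genes, the list members past the threshold and the 4 members of each list with the highest level in vein-like wells, plus *Hrh1*, *Hrh2* and *Cldn5*. As edgeR passed none, those called by limma were named instead, a choice made with the values in view. Filters, margins, depth, scaling, units and left-out plates were varied.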

Additional observations from a re-analysis of the deposited data

Results flagged for a closer look

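Of 58 gene levels and shares tested over the 4 plates, 5 had 1 plate far from the other 3, where chance gives about 1 in 20. *Il6* was at 574 CPM in vein-like wells of plate A in replicate 2 and at 215 to 239 CPM on the others. *Ptafr* was at 89.4 CPM on plate B of replicate 2, against 20.2 to 29.4 CPM. *Slco2a1* was lowest on plate A of replicate 1, at 365 CPM with 414 to 416 CPM on the others, a gap that is small beside its level. *Ehd4* was at 482 CPM on plate A of replicate 2, against 769 to 812 CPM. *Tm4sf1* was at 847 CPM on plate B of replicate 2, against 1265 to 1331 CPM.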

How the results depend on the processing

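Against the mean of the others edgeR called 0 genes, and the count became 304 with DESeq2, 210 with limma, 19 with sums per plate blocked by plate, 12 with wells classed again at 20000 reads, 8 with the same wells at 20000 reads, 7 without the filter on low counts, 7 with a limit of 10 CPM for the non-endothelial genes and 3 with no replicate block. Against artery-like wells it became 365 (DESeq2), 142 (limma), 6 (classed at 20000 reads), 5 (limit of 10 CPM) and 3 (plate sums). Against capillary-like wells it became 277, 127, 3, 8 and 9 in the same order, and 2 with the same wells at 20000 reads. Without the replicate block 3 of the 49 named genes passed in edgeR, and it changed no call in the other 2 comparisons. With 1 plate left out the limma counts ranged from 126 to 218, from 61 (62 and 81 for 2 other plates) to 161, and from 56 (62 and 69) to 114 in the 3 comparisons, and without the wells holding markers of another cell type they were 44, 23 and 24. Those alternatives of limma, and edgeR and limma on the same wells at 20000 reads, were chosen after seeing the data. In limma 5 to 17 of 49 named genes lost their call without a plate. *St3gal4* was at -0.0102 ± 1.46 (SE) in edgeR at the limit of 10 CPM, an error that takes in the value of 0.99 given above.

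The number of vein-like wells rose from 136 to 205 with no margin and was 46 at the limit of 10 CPM. The share in replicate 1 was 30.6% with no margin, 15.7% with a margin of 0.5, 27.8% at 10 CPM (5 of only 18 kept wells) and 16.0% with scores scaled over all kept wells, and in replicate 2 it was 34.7%, 15.3% and, scaled over all wells, 33.3%. As CPM of summed counts *Selp* was at 1618, *Sele* at 1521 and *Lrg1* at 1506 CPM. With the gene left out of the score *Lrg1* was at 1240, *Il1r1* at 93.8 and *Bst1* at 43.1 CPM. The causes were not tested. With 2 replicates and 2 residual degrees of freedom, a gene without a call may still differ.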

Other observations

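Vein genes were also read outside the kept wells. Of 431 wells of replicate 1 that were not kept, 41 had at least 2 of *Selp*, *Sele* and *Ackr1* at 100 CPM or more, and all 41 were also at the limit for a lymphatic, immune or mural gene. In replicate 2 it was 60 of 474 wells, 35 of them at such a limit. In wells of replicate 2 with at least 20000 reads it was 4 of 176. Among kept wells without a class, 0 of 92 and 0 of 112 had 2 of the 3 genes high.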
